A study of Bos taurus with 24 samples.

Results

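LGMN, GPNMB and MSR1 are genes that the study associated with the M2, or anti-inflammatory, end of macrophage polarization. They were taken here by identifier, LGMN as ENSBTAG00000046979, GPNMB as ENSBTAG00000000604 and MSR1 as ENSBTAG00000002885, and are 3 of the 24616 bovine genes quantified. Their mRNA was followed in monocyte-derived macrophages (MDMs) of 6 lactating Holstein cows, 3 of which were high and 3 low responders by the nitric oxide (NO) that their MDMs made against Escherichia coli in vitro. Adherent blood monocytes were grown for 6 days in serum-free medium with 5 ng/ml of recombinant bovine GM-CSF, a myeloid growth factor that all wells received. One well per cow and time point stayed untreated (control) and another received paraformaldehyde-inactivated E. coli at a multiplicity of infection of 5, and RNA was taken after 3 or 18 hours, which gave 8 conditions of 3 libraries each. The bacteria were dead, so the wells model contact with bacterial material and not a growing infection, and the phenotype is a property of the cow, so that whatever else differed between the 2 sets of 3 cows cannot be told apart from it.

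Legumain, the product of LGMN, is a cysteine endopeptidase of lysosomes that cuts after asparagine, and it processes cathepsins and antigens. It is inhibited by some of the cystatins. GPNMB is a membrane glycoprotein of melanosomes, lysosomes and the macrophage surface. It is induced by the MiT/TFE transcription factors that govern lysosome genes, and its shed ectodomain binds CD44 and syndecans. MSR1 is the class A scavenger receptor (CD204), a trimeric surface protein that takes up modified lipoproteins and binds lipopolysaccharide and whole bacteria. All 3 are well expressed in resting macrophages and serve uptake and degradation, a programme that is commonly set against the M1 programme of NOS2, the NO-forming enzyme, and inflammatory cytokines.

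All 3 genes passed the filter on low counts in every comparison. LGMN collected between 6441 and 97321 read pairs per library, GPNMB between 1128 and 74009, and MSR1 between 207 and 13622, at library totals between 6297190 and 20936554. These estimated counts, which are given to 2 decimals, were whole in all 24 libraries (equal at that precision), although fractions arise where reads are shared between genes. Of the macrophage markers, CD68 was listed at 1215 to 2671 TPM (relative abundance per transcript length), CD14 at 41.0 to 321 and AIF1 at 61.1 to 452, and none was at 0 in any library. Only 3 of the 12 macrophage markers could be matched to an identifier. Their summed level lay between 2331 and 3049 TPM in the control wells of high responders at 18 hours and between 2586 and 2904 in their exposed wells, against 1886 to 2509 and 2403 to 2858 in low responders. At 3 hours it was 2674 to 3212 and 2062 to 2204 TPM in high responders and 1754 to 2842 and 1455 to 2106 in low responders. PRF1 of T and NK cells stayed at 2.50 TPM or less and CD79A of B cells at 2.67 or less. MMP25, the neutrophil marker matched, reached at most 40.4 TPM, in the 18-hour exposed wells. No dendritic cell or platelet marker could be matched. At 18 hours PRF1 rose in both phenotypes (log2 fold changes 2.14 and 1.88 in high and low responders), as did MMP25 (2.48 and 1.62) and CD68 (0.62 and 0.60), while AIF1 fell in both (-0.65 and -1.25) and CD14 in low responders (-1.08). The part of these markers in the changes described here was not tested. In these bulk libraries, fewer cells of a type and less RNA per cell cannot be told apart.

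Values per library are given as CPM, which are counts scaled to a common library size with TMM size factors over all 24 libraries. Cows are named by phenotype and by the letter of their control library. Control and exposed wells of a time point were paired by the number in the library code, and both time points of a cow by the letter. The labels give no statement of either pairing, so both were checked in the data. The same letter in the high and the low group stands for different cows.

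The levels of LGMN did not overlap between the phenotypes in wells without bacteria. In the control wells at 3 hours, LGMN stood at 3420 CPM in high responder M, 4003 in high responder I and 4962 in high responder A. In the low responders it stood at 798 CPM in A, 1556 in I and 1611 in E. The lowest high responder was thus above the highest low responder, with means of 4128 ± 779 and 1322 ± 454 CPM (SD, n = 3 each), a ratio of 3.12. The same separation was present in the control wells at 18 hours, where the high responders had 2720 (M), 2476 (I) and 4314 (A) CPM and the low responders 1251 (I), 624 (A) and 1212 (E). These means were 3170 ± 998 and 1029 ± 351 CPM (SD, n = 3 each), a ratio of 3.08. In both sets of control wells low responder A had the lowest level of all cows and high responder A the highest. In these fits of 6 libraries edgeR's quasi-likelihood test called 0.00906% of the genes between phenotypes in control wells at 3 hours and 0.15% at 18 hours, at an adjusted p below 0.05 and a fold change above 1.5, and LGMN was not among them. A call is a stricter measure than ranges that do not overlap. The share of all genes without overlap was not counted.

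After 3 hours with E. coli the order of the phenotypes was the same. LGMN was at 3171, 2840 and 4376 CPM in high responders M, I and A, and at 1415, 806 and 1539 CPM in low responders I, A and E. The 2 ranges did not overlap and the ratio of the means was 2.76, with 0.0839% of all genes called between phenotypes in these wells and 0.0446% in the exposed wells at 18 hours. Here too the share of all genes without overlap was not counted. The exposed wells at 18 hours were the exception. There LGMN was at 1071, 1023 and 1837 CPM in high responders M, I and A, and at 1142, 1157 and 1251 CPM in low responders I, A and E. The ranges overlapped, and the means of 1310 ± 457 and 1183 ± 59.1 CPM (SD, n = 3 each) gave a ratio of 1.11. The level of the high responders had come down to that of the low responders, whose own level was near where it had been without bacteria. Ordered by mean, high responders in control wells at 3 hours, in exposed wells at 3 hours and in control wells at 18 hours overlapped with each other and lay above the other 5 conditions. Those 5, with means from 1029 to 1322 CPM, overlapped among themselves.

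GPNMB varied most between cows in the high responders. Its control level at 3 hours was 2811, 514 and 3773 CPM in high responders M, I and A, and 2045, 1022 and 1922 CPM in low responders I, A and E. High responder I had the lowest GPNMB of the high responders in all 4 kinds of well. At 18 hours the control wells held 2913, 905 and 4299 CPM in high responders M, I and A, and 2027, 1495 and 1853 CPM in low responders I, A and E. In both sets of control wells high responder I lay below and the other two high responders above all low responders, so that the phenotypes overlapped, with high over low ratios of the means of 1.42 and 1.51. At 3 hours with E. coli the levels were still 2520, 473 and 3518 CPM in high responders M, I and A and 2072, 1057 and 1852 CPM in low responders I, A and E. At 18 hours with E. coli GPNMB was at 256, 96.5 and 264 CPM in the same high responders and at 237, 355 and 433 CPM in the same low responders. The highest of these 6 exposed wells was below the lowest of the other 18 libraries. Their means, 206 ± 94.6 CPM in high and 342 ± 98.3 CPM in low responders (SD, n = 3 each), gave the only high over low ratio of GPNMB below 1, at 0.602, and the ranges overlapped.

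MSR1 had the lowest mean level of the 3 genes in control wells and the largest drop after 18 hours with bacteria. In the 18-hour control wells it was at 729, 720 and 748 CPM in high responders M, I and A, and at 553, 440 and 611 CPM in low responders I, A and E. The high responders differed from each other by less than in any other set of control wells, with an SD of 14.0 CPM, and did not overlap with the low responders (ratio of the means 1.37). At 3 hours the control wells held 943, 629 and 695 CPM in high and 617, 406 and 705 CPM in low responders, in the same order of cows, and these ranges overlapped. The exposed wells at 3 hours were at 816, 517 and 580 CPM and at 603, 376 and 639 CPM. At 18 hours with E. coli MSR1 was at 48.2, 49.0 and 24.9 CPM in high responders M, I and A and at 53.2, 52.6 and 59.4 CPM in low responders I, A and E. Now every high responder was below every low responder, with means of 40.7 ± 13.7 and 55.1 ± 3.80 CPM (SD, n = 3 each) and a ratio of 0.739. The order of the phenotypes in MSR1 at 18 hours was thus the opposite with and without bacteria. Neither order was called by edgeR's quasi-likelihood test (adjusted p 0.118 in control and 0.384 in exposed wells). Of all genes 0.15% and 0.0446% were called there. How many of all genes separate without overlap was not counted.

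**Figure D1:**
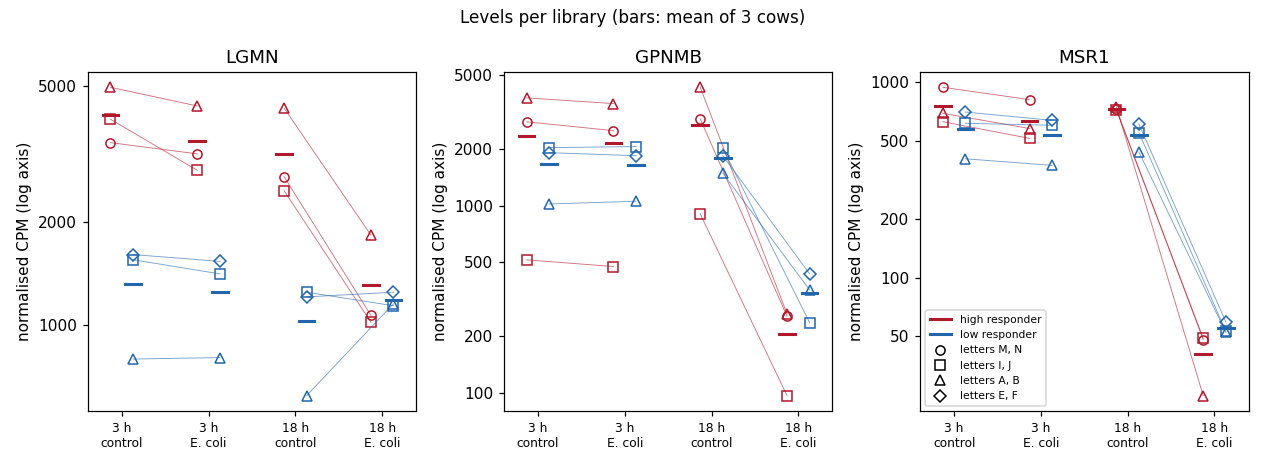
Normalised CPM (log axis) of LGMN, GPNMB and MSR1 in each of the 24 libraries, by time point and exposure, red for high and blue for low responders; symbols mark the library letters of a cow, thin lines join the control and exposed well of a cow and bars are means of 3 cows. LGMN of the high responders lies apart from the low responders in 3 of the 4 kinds of well and meets them in the exposed wells at 18 hours, while GPNMB and MSR1 of both phenotypes drop in that condition.

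Per transcript length, LGMN had the highest mean of the 3 genes in 7 of the 8 conditions. In the control wells of low responders at 18 hours GPNMB was above it, with 1054 ± 174 against 908 ± 315 TPM (SD, n = 3). In the control wells of high responders at 18 hours the mean levels were 2762 ± 896 TPM for LGMN, 1584 ± 1011 TPM for GPNMB and 614 ± 33.1 TPM for MSR1 (SD, n = 3). In the exposed wells of the same cows they were 879 ± 308, 92.5 ± 43.8 and 27.1 ± 10.1 TPM. By TPM, LGMN ranked between 26 and 337 among all genes of a library, GPNMB between 49 and 2762 and MSR1 between 187 and 5670, and the lowest ranks of GPNMB and MSR1 came from exposed wells at 18 hours. RSEM gave 1 transcript for LGMN and for GPNMB and 3 for MSR1. The effective length of MSR1, which follows the mixture of its transcripts, lay between 1700 and 1939 bases and changed under E. coli by -143 to 156 bases per cow, with both signs at both times, so no one-way shift between transcripts was seen.

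The first comparison asked how exposure changed each gene within a phenotype. A gene was called changed at an adjusted p below 0.05 with a fold change above 1.5, by edgeR's quasi-likelihood test with Benjamini-Hochberg adjustment over all genes tested. At 3 hours after exposure none of the 3 genes was called in either phenotype, while 27.6% of the 11264 genes tested were called in high and 17.7% in low responders. In high responders the log2 fold changes were -0.21 for LGMN (SE 0.12, adjusted p 0.199), -0.07 for GPNMB (SE 0.10, adjusted p 0.617) and -0.20 for MSR1 (SE 0.10, adjusted p 0.152). In low responders they were -0.05, 0.02 and -0.08, with adjusted p from 0.587 to 0.932. The changes of single cows at 3 hours lay between -0.50 and 0.05 on the log2 scale. Those of the high responders were below 0 in 3 of 3 cows for each gene. In low responders MSR1 was below 0 in 3, LGMN in 2 and GPNMB in 1 of 3 cows. How often all genes share a sign in this way was not counted. The high responder means of these single changes (-0.26, -0.13 and -0.25) lay below the fitted values, which use size factors of 1 time point. These values are relative to the bulk of the genes. Without size factors the median gene lay at -0.47 in high and -0.43 in low responders at 3 hours, and at -0.31 and -0.12 at 18 hours, so shares of all reads look lower in exposed wells.

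At 18 hours MSR1 fell 18.7-fold in high responders (log2 fold change -4.22, SE 0.19, adjusted p 1.62e-07) and 9.78-fold in low responders (-3.29, SE 0.18, adjusted p 1.04e-06). GPNMB fell 12.1-fold in high responders (-3.60, SE 0.22, adjusted p 9.12e-07) and 5.43-fold in low responders (-2.44, SE 0.21, adjusted p 1.33e-05). LGMN fell 2.46-fold in high responders (-1.30, SE 0.16, adjusted p 9.34e-05). In low responders its log2 fold change was 0.24 (SE 0.16, 95% interval -0.12 to 0.61, adjusted p 0.246), which did not pass the test, with 1 of 3 cows below 0. The background of these counts is large, since 39.6% of the 11759 genes tested were called in high and 29.1% in low responders. By size the falls of MSR1 and GPNMB were among the steepest, as 79 genes had a lower log2 fold change than MSR1 in high responders and 146 a lower one than GPNMB, against 1365 for LGMN. In low responders 128 genes lay below MSR1, 282 below GPNMB and 8175 below LGMN.

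Cow by cow at 18 hours, LGMN changed by -1.34, -1.28 and -1.23 on the log2 scale in high responders M, I and A, a spread of 0.06 (SD). It changed by -0.13 and 0.05 in low responders I and E and by 0.89 in low responder A, whose control well had the lowest LGMN level of the 24 libraries. Low responder A therefore decides the sign of the average, which was -0.06 without this cow. GPNMB changed by -3.51, -3.23 and -4.03 in high responders M, I and A and by -3.09, -2.08 and -2.10 in low responders I, A and E. High responder I, with the lowest GPNMB level of the high responders, thus had a drop of similar size to the other two. MSR1 changed by -3.92, -3.88 and -4.91 in high responders M, I and A and by -3.38, -3.07 and -3.36 in low responders I, A and E. For each of the 3 genes the least negative high responder lay below the most negative low responder. The study named these genes from the same libraries, so this separation is no independent evidence of a difference. How many of all genes separate in this way was not counted. By edgeR's test of the difference between phenotypes, 2067 of the 11759 genes tested had an unadjusted p under 0.05. The stricter threshold for a call was passed by 1.62%.

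**Figure D2:**
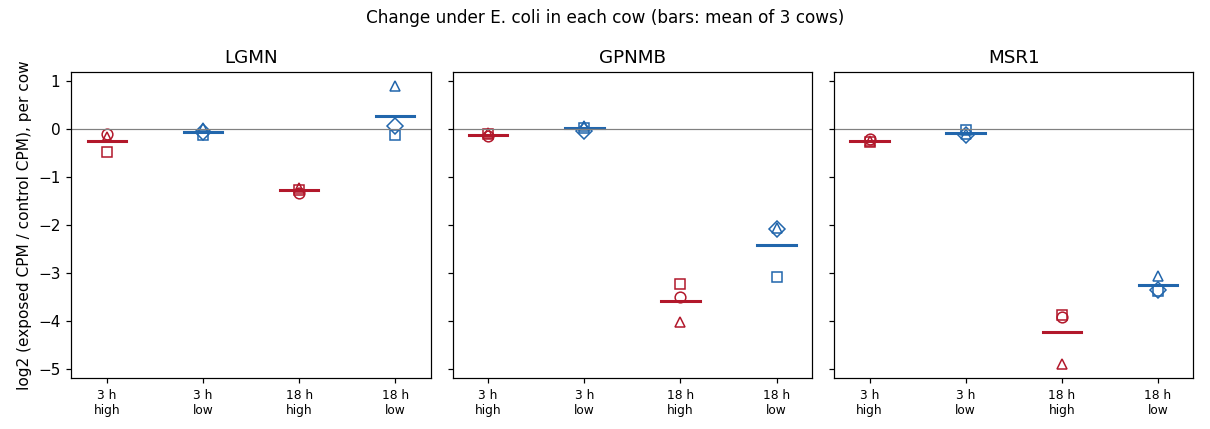
Change of each gene under E. coli in each cow, as log2 of exposed over control CPM, at 3 and 18 hours for high (red) and low (blue) responders, with the symbols of the library letters as in the plot of levels (circles M, squares I, triangles A, diamonds E) and bars for the mean of 3 cows. At 3 hours all changes lie between -0.50 and 0.05, and at 18 hours the high responders lie below the low responders in each panel. The study named these genes from the same 18-hour libraries.

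The second comparison, the one the study was built on, was the difference between the effect of E. coli in high and in low responders. At 18 hours it was -1.54 for LGMN (log2, SE 0.23, adjusted p 0.0138), -1.16 for GPNMB (SE 0.29, 95% interval -1.80 to -0.52, adjusted p 0.0764) and -0.93 for MSR1 (SE 0.24, 95% interval -1.48 to -0.39, adjusted p 0.0883). Only LGMN passed the test, and its difference was called with any 1 of the 6 cows left out (-1.75 to -1.23). It was not called without the term for the cow (-1.47, adjusted p 0.319) or with a term for exposure by the number of the library code (-1.50, adjusted p 0.0574). GPNMB and MSR1 did not pass it, but they were called by DESeq2 on the same counts (-1.13 and -0.92), and GPNMB was called without low responder I (-1.50). The study named these genes from the same libraries, so that the direction at 18 hours is not independent evidence. At 3 hours the differences were -0.16 for LGMN (95% interval -0.53 to 0.22, adjusted p 0.721), -0.09 for GPNMB (-0.41 to 0.24, adjusted p 0.824) and -0.11 for MSR1 (-0.43 to 0.20, adjusted p 0.767), where 0.178% of all genes were called. The change of the difference from 3 to 18 hours was -1.35 for LGMN (SE 0.31, adjusted p 0.285), -1.04 for GPNMB (SE 0.36, adjusted p 0.384) and -0.79 for MSR1 (SE 0.31, adjusted p 0.434). No gene of the 11905 tested was called by edgeR in this comparison (0%), in which 1160 had an unadjusted p under 0.05 and DESeq2 called 33 genes.

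A difference of effects can come from the exposed wells, from the control wells or from both, so the third comparison set the phenotypes against each other within each kind of well. For LGMN the log2 difference of high minus low responders was 1.64 in control wells at 3 hours (SE 0.30, 95% interval 0.94 to 2.34, adjusted p 0.149) and 1.61 in control wells at 18 hours (SE 0.31, 95% interval 0.88 to 2.34, adjusted p 0.0662). In exposed wells it was 1.504 at 3 hours (SE 0.30, 95% interval 0.82 to 2.18, adjusted p 0.134) and 0.14 at 18 hours (SE 0.23, 95% interval -0.39 to 0.68, adjusted p 0.773). The 3 larger values are about 3-fold. They did not pass the adjusted test in fits of 6 libraries, and all 3 passed it by DESeq2 (1.63, 1.61 and 1.48) and by edgeR with all 24 libraries in one fit (1.64, 1.62 and 1.47). That one fit had no term for the cow, so the wells of a cow counted as independent libraries. Calls over all genes also rose in these wells. In control wells at 3 and 18 hours and exposed wells at 3 hours they went from 1, 17 and 9 to 240, 692 and 283 by DESeq2. In one fit they were 199, 48 and 132. By size, 61 of 11034 genes had a higher log2 difference than LGMN in the control wells at 3 hours and 73 of 11356 at 18 hours, against 3276 of 11210 in the exposed wells at 18 hours. The difference of effects in LGMN at 18 hours thus consisted of a gap of 1.61 in the control wells and one of 0.14 in the exposed wells. In the exposed wells at 18 hours alone, the mean of LGMN was not lower in high than in low responders.

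GPNMB and MSR1 had another make-up. GPNMB was at 0.58 (high minus low, SE 0.47, adjusted p 0.518) in the control wells and at -0.74 (SE 0.38, adjusted p 0.353) in the exposed wells at 18 hours. MSR1 was at 0.44 (SE 0.13, adjusted p 0.118) and -0.43 (SE 0.24, adjusted p 0.384). Their difference of effects was therefore spread over both kinds of well, above 0 without and below 0 with bacteria, and none of the 4 values passed the test. At 3 hours GPNMB was at 0.51 and 0.42 and MSR1 at 0.39 and 0.27 in control and exposed wells, with adjusted p from 0.664 to 0.998. For GPNMB the values in control wells at 3 hours moved between -0.03 without high responder A and 0.97 without high responder I.

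**Figure D3:**
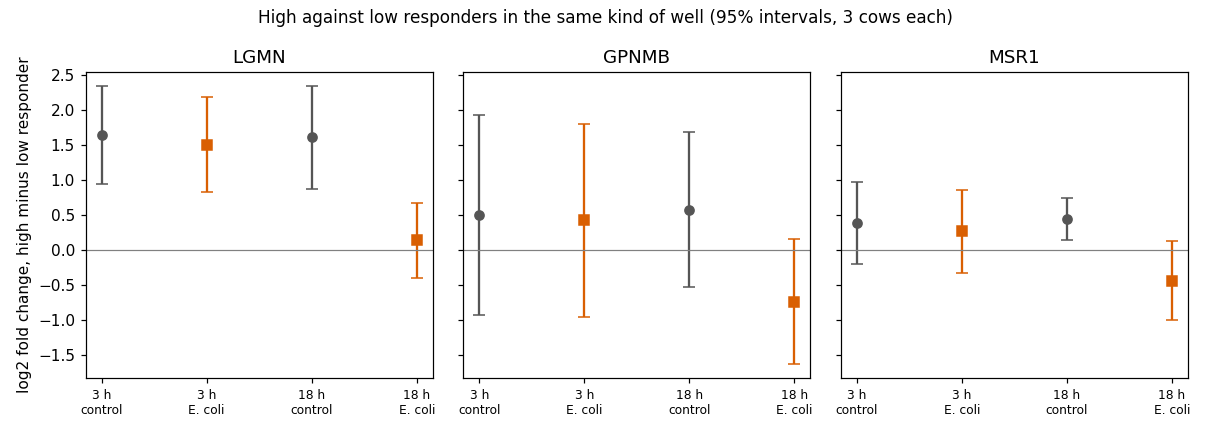
Log2 fold change of high minus low responders in control (grey circles) and exposed (orange squares) wells at 3 and 18 hours, for each gene, with 95% intervals of edgeR's fit of 3 against 3 cows that are not adjusted for the number of genes. LGMN lies between 1.504 and 1.64 in 3 kinds of well and at 0.14 in the exposed wells at 18 hours, whereas GPNMB and MSR1 lie above 0 in the first 3 and below 0 in the last.

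The fourth comparison was the change from 3 to 18 hours. In the exposed wells of high responders all 3 genes fell, with log2 fold changes of -1.40 for LGMN (SE 0.33, adjusted p 0.0034), -3.40 for GPNMB (SE 0.72, adjusted p 0.00153) and -3.97 for MSR1 (SE 0.29, adjusted p 2.78e-08), where 23.8% of all genes were called. In the exposed wells of low responders GPNMB fell (-2.28, SE 0.68, adjusted p 0.0207), MSR1 fell (-3.29, SE 0.28, adjusted p 3.22e-07), and LGMN was at -0.08 (SE 0.32, adjusted p 0.881), where 19.4% were called. The call of GPNMB in low responders was lost without the 18-hour wells of any 1 low responder and without the 3-hour wells of low responder I or E. In control wells none of the 3 genes was called: high responders had -0.38, 0.19 and -0.04 and low responders -0.36, 0.11 and -0.11 for LGMN, GPNMB and MSR1, with adjusted p from 0.938 to 1. Over all genes 0.0084% were called in high and 0.0336% in low responders. With a replicate block by library letter the calls over all genes went from 1 to 25 in high and from 4 to 26 in low responders, and the 3 genes were still not called (-0.41, 0.34 and -0.02 in high, -0.36, 0.15 and -0.09 in low responders). The late drop was thus seen in the wells with bacteria.

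Related genes were followed in lists of the lysosome, of scavenger receptors and of polarization, of which 41 of 173 symbols had an identifier here. Most of the symbols come from a table that is largely ordered by the study's own result at 18 hours, so the counts at 18 hours lean towards genes with a difference. They are read beside the shares of all genes called, which for the effect at 18 hours were 39.6% in high and 29.1% in low responders. The cystatins are a family of which only some members inhibit legumain, so the values of the matched loci are not read as inhibition of legumain. Both loci named CSTB stood at 0.76 and 0.89 (log2, higher, called) in high responders at 18 hours. In low responders they stood at 0.86 (called) and 0.50 (not called). CST3 was at -0.46 in high and 0.02 in low responders, not called in either. Of the lysosomal proteases, 3 of 15 were matched. CTSS, a protease of antigen processing with 4539 ± 414 CPM in the 18-hour control wells of high responders (SD, n = 3), was at 0.14 in high and -0.33 in low responders, neither called. TPP1 was at -0.34 and 0.03, neither called, and the locus named CTSL, at 0.96 (called) and 0.53 (not called), had mean levels of only 1.61 to 6.46 CPM. In the difference between phenotypes 0.178% of all genes at 3 hours and 1.62% at 18 hours were called by edgeR, and none of the 3 proteases or 3 cystatin loci was, which is near that background and no result about them.

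In the lysosome and MiT/TFE list, which holds the regulators of GPNMB, 4 of 38 genes were matched. MITF, the factor for which GPNMB is a target, rose 3.45-fold in high and 2.10-fold in low responders at 3 hours. At 18 hours it was at 0.69 (log2, called) in high and 0.21 (not called) in low responders, while GPNMB was low in both. GUSB and MCOLN1, a lysosomal hydrolase and a lysosomal channel, fell in high responders at 18 hours (-0.95 and -0.68) and were at -0.51 and -0.20, not called, in low responders. ATP6V1A, a proton pump subunit, was at 0.34 and 0.10, not called. The 2 of 5 GPNMB partners that were matched, CD44 and the syndecan SDC4, rose in both phenotypes at both times, at 18 hours by 1.70 and 1.34 for CD44 and by 3.42 and 2.60 for SDC4 in high and low responders. In high and low responders 27.6% and 17.7% of all genes were called at 3 hours and 39.6% and 29.1% at 18 hours.

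Of the scavenger receptors, 3 of 18 were matched. SCARB2, a lysosomal membrane protein, fell in both phenotypes at 18 hours (-0.9998 in high and -0.66 in low responders). CXCL16, a scavenger receptor that is also a chemokine, rose by 3.22 and 2.47, and CD68 by 0.62 and 0.60. In the lipid-associated list, with 5 of 12 matched, LPL, which frees fatty acids from lipoproteins, fell in high and low responders (-3.36 and -2.67), as did FABP5 (-1.85 and -1.34) and LGALS3 (-0.86 and -0.93). ABCA1, the cholesterol exporter, rose by 2.43 and 1.42. NR1H3 was at 0.72 (called) in high and 0.01 (not called) in low responders. LPL was the gene of these lists with a called negative difference of effects at 18 hours (-0.69, SE 0.13, adjusted p 0.0319), while CXCL16 (0.75, adjusted p 0.0417) and ABCA1 (1.01, adjusted p 0.0314) had a positive one. For this difference 1.62% of all genes were called, and for the effects 39.6% in high and 29.1% in low responders.

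Of the other M2-associated genes, 7 of 27 were matched and 6 tested. PPARG, a lipid-sensing nuclear receptor, fell in high and low responders at 18 hours (-1.26 and -0.62). TGM2, a transglutaminase, rose by 3.36 and 2.43. IL4R rose by 0.89 in high responders and was at 0.56, not called, in low responders, and STAT6 and CCL17 were called in neither at 18 hours. None of the 6 had a called difference of effects at 3 or 18 hours, and the median at 18 hours was -0.15. Of all genes 0.178% and 1.62% were called, so the absence of calls is near that background and no result about them. Of the M1-associated genes, with 11 of 22 matched, 10 rose in high and 9 in low responders at 18 hours, with medians of 4.81 and 3.32, where 2011 and 1327 of the 11759 genes tested were called higher with medians over all genes of -0.04 and 0.0018, and CD14 fell in low responders (-1.08). NOS2 rose by 10.15 in high and 8.98 in low responders. Of the 11, 3 had a higher effect in high responders at 18 hours by edgeR's test of the difference, which called 1.62% of all genes. They were GBP5 (1.95, adjusted p 0.00498), IRF1 (1.27, adjusted p 0.00799) and CCL5 (2.49, adjusted p 0.0314). In control wells at 18 hours high minus low was -2.15 for GBP5, -0.60 for IRF1 and -1.99 for CCL5. In exposed wells it was -0.38, 0.67 and 0.26, and none of these gaps was called.

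**Figure D4:**
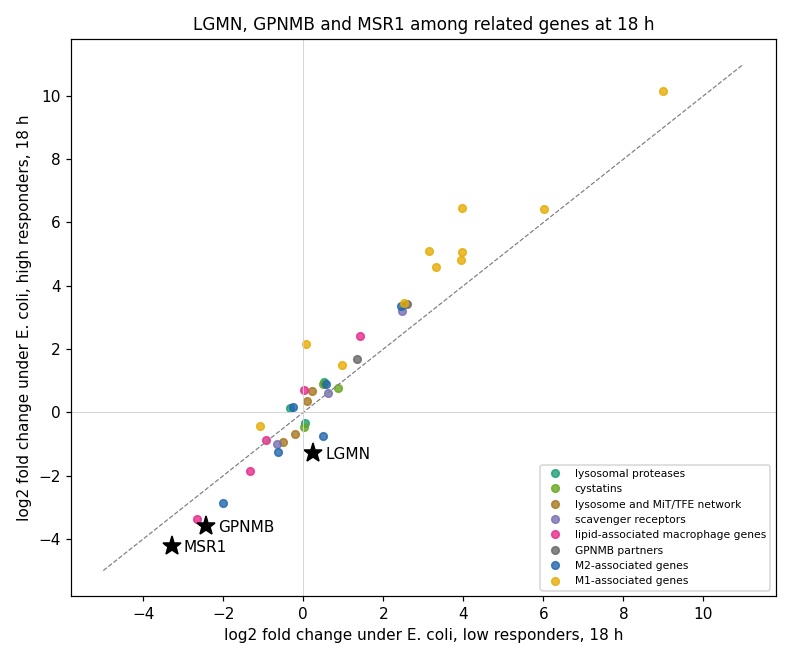
Log2 fold change under E. coli at 18 hours in low (x axis) and high (y axis) responders for LGMN, GPNMB and MSR1 (stars) and the matched genes of the related lists (points, coloured by list); the dashed line marks equal effects. MSR1 lies at -3.29 and -4.22, GPNMB at -2.44 and -3.60 and LGMN at 0.24 and -1.30, all below the line, and NOS2 lies at the upper end at 8.98 and 10.15.

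As a description, the log2 CPM of the 3 genes were compared with each other and with all 11905 genes that passed the filter over the 24 libraries, which share cows and conditions. GPNMB and MSR1 had a Pearson r of 0.85 with each other, and LGMN had 0.44 with GPNMB and 0.45 with MSR1. The genes most like LGMN were ENSBTAG00000021323 (r 0.916), for which no symbol was available here, and, as the one with a symbol among the first 5, the lipid transporter family member ABCA10 (r 0.900). ABCA10 fell in both phenotypes at 18 hours (-4.62, SE 0.38, in high and -1.84, SE 0.45, in low responders), whereas LGMN was not called in low responders. Its difference of effects of -2.78 (SE 0.66, adjusted p 0.0689) did not pass the test. High minus low, ABCA10 was at 4.30 and 3.21 in control wells at 3 and 18 hours, not called, and at 4.21, called, in exposed wells at 3 hours. In the exposed wells at 18 hours it did not pass the filter on low counts. Most like GPNMB were ENSBTAG00000008541 (r 0.963) and, with a symbol, the choline transporter-like gene SLC44A2 (r 0.910), which fell in both (-2.42, SE 0.21, in high and -1.78, SE 0.20, in low responders). ENSBTAG00000008541 fell in both (-3.20 and -3.32), with a difference of effects of 0.12 (SE 0.31, adjusted p 0.885). Most like MSR1 was ENSBTAG00000013923 (r 0.979), which fell in high and low responders (-2.59 and -2.33) and whose difference of -0.27 (SE 0.31, adjusted p 0.711) did not pass the test either. All 5 genes closest to MSR1 had r of 0.972 or more and none of them had a symbol here.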

How the data were processed

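Total RNA of the 24 MDM cultures was made into stranded mRNA libraries. The authors used Trimmomatic for trimming, FastQC 0.11.5 for quality control, STAR with the UMD 3.1 assembly for mapping and RSEM for quantification; their own test was DESeq2 1.22.2. The deposited tables give per gene RSEM's expected counts, which are estimated numbers of read pairs and not normalised, and the deposited TPM, which RSEM scales by effective length and by the sum of each library.

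Here expected counts were rounded, normalised with TMM and fitted in R 4.3.3 with edgeR 4.0.16 (quasi-likelihood). Genes were filtered with filterByExpr. Effects of E. coli and their difference were fitted per time point with a term for each cow, phenotypes within 1 kind of well in fits of 6 libraries, and changes with time in all 24 libraries with a mean per condition. Calls needed an adjusted p below 0.05 and a fold change above 1.5. With 3 cows a side, an exact two-sided permutation test of 1 value cannot go below 0.1 and was not used. The pairing of wells by code number was checked: over genes, deviations from the condition means had correlations of 0.327 to 0.732 where numbers matched (12 pairs) and of -0.568 to 0.00521 where they did not (24 pairs). For letters across time points the values were 0.299 to 0.682 and -0.502 to -0.00518. Whether the letters and numbers mark cows is not stated in the sources used here.

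The members and lists were chosen with earlier results of these data known. Named genes were the 3 members, the 5 genes most correlated with each, and, of the related lists, a fixed set and the called genes with the largest differences, with further matched genes of these lists named after their values were seen. Symbols came from 2 shortened supplementary tables (2808 symbols), the second largely in order of the authors' own 18-hour result, and the columns of fold changes and p values in them were not used. No sequence or coordinate is given, since the tables used here hold none on the build of the files. The settings tried were RLE size factors, no filter, a mean of at least 50 counts and DESeq2 1.42.0 without and with length offsets. Further settings were other blocks, all libraries in 1 fit, a term for library code (91 and 92 against 93 and 94), an adjusted p below 0.1 and TPM as deposited. The wells of each cow were also left out in turn, at 1 time point at a time. The main kinds of model were first tested on simulated counts with known changes and no differences between cows. Not simulated were the change of the difference with time, the other blocks, the code term and cow terms with all libraries in 1 fit. With 200 changed genes, edgeR's difference recovered 52 2-fold and 94 4-fold changes at 3 hours, with 9 false calls. At 18 hours it recovered 50 and 96, with 10 false calls. All 24 libraries were used. A gene of the related lists is not reported here.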

Additional observations from a re-analysis of the deposited data

Results flagged for a closer look

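The effect of E. coli on LGMN differed between high and low responders at 18 hours by the test of the difference itself (log2 -1.54, SE 0.23, adjusted p 0.0138 by edgeR's quasi-likelihood test). The 3 high responders changed by -1.34, -1.28 and -1.23 and the 3 low responders by -0.13, 0.89 and 0.05. The control wells of the same cows differed by 1.61 (high minus low) and the exposed wells by 0.14. The study named LGMN from these libraries, so the difference is not independent evidence of its direction.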

How the results depend on the processing

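Of the fold changes recomputed for the 3 genes, 666 kept their direction and their side of the threshold, 23 newly passed it, 7 lost it and 15, none of them called in the main analysis, changed sign. With GPNMB and MSR1, the difference of effects at 18 hours passed the test without a filter (-1.15 and -0.93), by DESeq2 (-1.13 and -0.92), by DESeq2 with length offsets (-1.14 and -0.89) and at an adjusted p below 0.1 (-1.16 and -0.93), and GPNMB also with all 24 libraries in 1 fit (-1.17). The gap in LGMN between phenotypes passed in control wells at 18 hours without a filter (1.61), at an adjusted p below 0.1 (1.61), by DESeq2 (1.61), with offsets (1.61) and in 1 fit (1.62). By DESeq2, with offsets and in 1 fit it also passed in control wells at 3 hours (1.63, 1.63 and 1.64) and in exposed wells at 3 hours (1.48, 1.48 and 1.47). For gaps between phenotypes the 1 fit had no term for the cow and took the wells of a cow as independent. DESeq2 also called the change of the LGMN difference with time (-1.35, with offsets -1.35). The call of the LGMN difference at 18 hours was lost without the replicate block of cows (-1.47, adjusted p 0.319) and with a library code term for exposure (-1.50, adjusted p 0.0574); the cause was not tested. With a replicate block by library letters, LGMN of low responders from 3 to 18 hours with E. coli was 0.0036, and no call of the 3 genes changed. The code term gave -0.0029 for GPNMB in low responders at 3 hours, and TPM as deposited a mean change of -0.48, where CPM gave 0.0047. By TPM the mean changes of high responders at 3 hours were -0.66 (LGMN), -0.52 (GPNMB) and -0.69 (MSR1), where CPM gave -0.26, -0.13 and -0.25. In low responders LGMN was at -0.54 and MSR1 at -0.575, where CPM gave -0.06 and -0.10. At 18 hours LGMN in high responders moved from -1.28 to -1.66 and MSR1 in low responders from -3.27 to -3.46.

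Leaving out the wells of 1 cow at 1 time point moved values across 0 or a threshold as follows. In low responders, LGMN at 18 hours ranged from -0.063 to 0.47 and GPNMB at 3 hours from -0.0013 to 0.044. The high minus low gap of GPNMB at 3 hours ranged from -0.027 to 0.97 in control and from -0.135 to 0.88 in exposed wells, and that of LGMN in exposed wells at 18 hours from -0.18 to 0.30. From 3 to 18 hours, control wells of high responders ranged from -0.31 to 0.70 (GPNMB) and -0.16 to 0.15 (MSR1), those of low responders from -0.15 to 0.28 and -0.31 to 0.064, and exposed wells of low responders from -0.32 to 0.093 (LGMN) and -2.52 to -2.08 (GPNMB, called in 7 of 12). The GPNMB difference at 18 hours ranged from -1.50 to -0.94, called in 1 of 6.

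Over all genes, the 190 calls of the difference at 18 hours became 435 without a filter, 395 by DESeq2, 398 with offsets, 124 in 1 fit, 0 without the block, 67 with the code term and 448 at 0.1, and 30 without low responder A; the 20 at 3 hours became 103, 189, 192, 165, 0, 0 and 123, and 0 to 506 with 1 cow left out. Between phenotypes, calls at 18 hours went from 17 to 692 by DESeq2 in control wells and from 5 to 641 in exposed wells. In 1 fit they were 48 and 117. The 17 calls became 219 without a filter and 507 at an adjusted p below 0.1. At 3 hours calls went from 1 to 240 by DESeq2 and 199 in 1 fit in control wells. In exposed wells at 3 hours they went from 9 to 283 and 132. Depth limits mainly MSR1 in exposed wells at 18 hours, with 207 read pairs in its lowest library.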
